A study of Mus musculus with 12 samples.

Results

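The glycolysis and hypoxia genes described here are 31 mouse genes: the transporters that carry glucose in and lactate out, the enzymes that take glucose to lactate, the kinases that set the flux, the oxygen-sensing HIF alpha subunits and their hydroxylases, and genes known as hypoxia targets. They were chosen by symbol. A gene was measured where the deposited table held at least 1 probe set annotated with that symbol and no other, and its probe sets were averaged. That rule found 29 of the 31 genes, among 19935 genes measured in the same way. Gpi1 and Eno1 had no probe set of that symbol alone and were not analysed here.

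The study asked what claudin-2, a tight junction protein that makes the epithelium leakier to small cations and water, does to the mouse colon at rest and during chemical colitis. All animals were male and between 8 and 10 weeks old, and all drank their assigned fluid for 10 days. The 4 groups had 3 arrays each: Villin-Claudin-2 transgenic mice (TG) given 4% w/v dextran sodium sulfate (DSS, a polymer that injures the colon lining), wild-type littermates (WT) given the same DSS, TG mice given water, and WT mice given water. The transgene's name gives the villin promoter, which is active in gut epithelium, and the cells are labelled colon epithelial cells. The labels leave unsaid whether the 3 arrays of a group are 3 animals, so every p-value below reflects only the scatter of these arrays, some of which may be technical.

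Glycolysis splits glucose into pyruvate, and lactate dehydrogenase turns pyruvate into lactate when the mitochondria do not take it up. When oxygen is plentiful, EGLN prolyl hydroxylases mark the HIF alpha subunits for destruction through VHL. When it is scarce, HIF alpha accumulates, pairs with ARNT and raises transcription of most glycolytic genes and of genes for vessel growth, pH control and mitochondrial turnover. The surface of the colon epithelium lies beside an almost oxygen-free lumen and its cells burn much of their oxygen on butyrate, so some HIF activity is normal there. HIF alpha is controlled largely through protein stability, which RNA arrays do not measure.

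ACGTG is a common core of the DNA sites that HIF binds. Only these letters were searched, so a gene without a match may still hold a HIF site of other letters. A promoter window of 300 bases, from 250 before to 50 after the start of transcription, was found in RefSeq's table for GRCm38.p6 for 29 of the 31 genes, with 39 windows in all. ACGTG stood on either strand in at least 1 window of 21 of these 29 genes (72.4%), against 5886 of 27025 genes with a window (21.8%). Counted by window, it stood in 23 of 39 (59.0%), against 6447 of 32851 (19.6%). The set was chosen to hold genes known as hypoxia targets, so a higher share than over all genes is not an independent result. Of the 39 windows, 9 held 2 or more sites (23.1%), against 2.66% of all 32851 windows. The overlapping E-box CACGTG, a motif of other factors that contains ACGTG on both strands, stood in 4 of the 39 windows (10.3%), against 7.15% of all windows. By role, a match was found in 2 of 2 transporters, 7 of 12 enzymes, 1 of 3 flux regulators, 3 of 3 HIF and EGLN genes with a window and 8 of 9 other hypoxia genes with a window. A match describes the letters and does not show that a factor binds there.

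The 6 windows printed here belong to the genes with a match that had the smallest p-values for the DSS change averaged over genotypes. For a gene with several windows, a window with the most sites is printed. Another window of Pkm, of Ldha and of Hk1 held no match. They show where the motif lies in genes whose array values follow. Each is read 5′ to 3′ on the strand of the gene, and capitals mark ACGTG, or CACGT where it lies on the opposite strand. Pgam1 lies at chr19:41911621-41911920 (plus strand), with the first base of the motif at -114 from the start. Pfkfb3 lies at chr2:11553880-11554179 (minus strand), with the motif at -60. Pkm lies at chr9:59656977-59657276 (plus strand), with opposite-strand sites at -75 and 9. Ldha lies at chr7:46845554-46845853 (plus strand), with 3 sites, of which 2 are CACGTG beginning at -145 and -48 and 1 is CACGT at -34. Hk1 lies at chr10:62340372-62340671 (minus strand), with sites at 8 and 17 after the start. Slc2a1 lies at chr4:119108495-119108794 (plus strand), with 1 site at -36.
Pgam1: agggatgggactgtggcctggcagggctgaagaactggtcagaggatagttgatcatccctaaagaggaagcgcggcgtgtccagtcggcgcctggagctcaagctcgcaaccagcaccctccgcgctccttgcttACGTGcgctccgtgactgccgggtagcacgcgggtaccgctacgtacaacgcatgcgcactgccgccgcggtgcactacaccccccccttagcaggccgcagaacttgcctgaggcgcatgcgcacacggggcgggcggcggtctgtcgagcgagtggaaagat
Pfkfb3: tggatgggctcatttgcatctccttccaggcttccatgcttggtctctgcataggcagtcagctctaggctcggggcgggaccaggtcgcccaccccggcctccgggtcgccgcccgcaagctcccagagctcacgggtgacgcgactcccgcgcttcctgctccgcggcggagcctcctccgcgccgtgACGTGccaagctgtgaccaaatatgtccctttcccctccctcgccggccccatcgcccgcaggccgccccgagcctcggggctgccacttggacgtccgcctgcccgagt
Pkm: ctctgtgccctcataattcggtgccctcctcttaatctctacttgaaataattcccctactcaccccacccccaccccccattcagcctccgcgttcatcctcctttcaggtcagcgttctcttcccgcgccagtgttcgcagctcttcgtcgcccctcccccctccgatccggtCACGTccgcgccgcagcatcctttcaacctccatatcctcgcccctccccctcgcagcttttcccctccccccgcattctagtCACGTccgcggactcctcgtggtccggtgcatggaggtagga
Ldha: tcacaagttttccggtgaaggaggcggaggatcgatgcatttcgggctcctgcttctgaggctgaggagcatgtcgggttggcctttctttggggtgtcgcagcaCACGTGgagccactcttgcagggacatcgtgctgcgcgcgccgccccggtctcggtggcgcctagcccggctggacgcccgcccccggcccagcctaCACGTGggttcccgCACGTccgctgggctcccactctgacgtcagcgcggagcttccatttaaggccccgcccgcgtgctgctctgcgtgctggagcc
Hk1: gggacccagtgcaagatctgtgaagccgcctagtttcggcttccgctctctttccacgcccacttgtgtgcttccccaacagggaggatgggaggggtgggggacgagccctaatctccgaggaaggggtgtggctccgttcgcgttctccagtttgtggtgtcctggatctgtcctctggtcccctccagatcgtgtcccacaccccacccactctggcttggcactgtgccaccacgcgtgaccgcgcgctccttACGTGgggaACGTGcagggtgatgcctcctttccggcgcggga
Slc2a1: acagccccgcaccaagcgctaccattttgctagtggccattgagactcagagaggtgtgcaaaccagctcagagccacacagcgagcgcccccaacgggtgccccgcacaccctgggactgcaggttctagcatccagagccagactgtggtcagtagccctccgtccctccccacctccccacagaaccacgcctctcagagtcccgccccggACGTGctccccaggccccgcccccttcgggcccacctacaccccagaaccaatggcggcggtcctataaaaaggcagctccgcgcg

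Every array value below is a log2 signal minus the probe set's own median on the 12 arrays. A value of 1 is therefore a 2-fold excess over that median. The values compare arrays for 1 gene and give no absolute level, so levels could not be set against each other between genes, and whether a marker was absent could not be read. Differences are log2 differences from 1 limma fit over the 12 arrays, given with their SE (n = 3 arrays per group). The fit took 1 spread per gene over all 4 groups. SEs and p-values in TG therefore also carry the scatter of the WT DSS arrays, and the reverse. A gene was called at a Benjamini-Hochberg adjusted p under 0.05 over the 19935 genes.

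The WT DSS arrays did not look alike. Of 28815 probe sets, 677, 3795 and 1035 lay more than 1 log2 unit from their median in WT DSS replicates 1, 2 and 3, against 53 to 285 in the TG DSS arrays and 22 to 91 in the water arrays. In WT DSS replicate 2 all 14 pan-epithelial markers, such as Epcam and Cdh1, lay below -0.5, with a median of -2.05. The same array had neutrophil markers at a median of 4.26 (12 of 12 above 0.5), macrophage and monocyte markers at 2.26 (13 of 13), endothelial markers at 3.21 (10 of 10) and fibroblast markers at 2.08 (9 of 10). In WT DSS replicate 1 these 4 medians were 2.28, 1.13, 0.79 and 1.08, with 12 of 12, 13 of 13, 8 of 10 and 7 of 10 markers above 0.5, and the pan-epithelial median was -0.09. In WT DSS replicate 3 they were 0.40, -0.08, -0.29 and -0.22, with 5 of 12, 2 of 13, 0 of 10 and 0 of 10 above 0.5. TG DSS replicate 1 had 9 of 12 neutrophil, 12 of 13 macrophage, 5 of 10 endothelial and 9 of 10 fibroblast markers above 0.5, and TG DSS replicates 2 and 3 had at most 1 in each of these 4 lists. Other lists also shifted. Smooth muscle markers had medians of -1.145 in WT DSS replicate 1, 0.63 in WT DSS replicate 2 and -0.70 in TG water replicate 2. B and plasma cell markers had medians of 1.05 in TG DSS replicate 1 and -1.14 in TG DSS replicate 3. In WT DSS replicates 1 and 3 they were 1.57 and -1.44, and in TG water replicate 2 -1.34. Fewer cells of a type and less RNA per cell cannot be told apart in these bulk samples. The part of these markers in the results below was not tested except where leaving out an array is given.

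No gene of the set was called in any of the 6 comparisons by limma. The counts were 0 of 29 for DSS in TG (0% of all genes were called), 0 of 29 for DSS in WT (0.171%) and 0 of 29 for DSS averaged over genotypes (0.00502%). They were also 0 of 29 for TG against WT under DSS (0.0401%), for TG against WT at water (0%) and for the interaction, in which the WT response to DSS is subtracted from the TG response (0%). At an unadjusted p under 0.05, 1 gene differed for DSS in TG (3.45%, against 2.38% of all genes), 7 for DSS in WT (24.1% against 15.2%) and 2 for the average (6.9% against 10.8%). The counts at that threshold were 9 for TG against WT under DSS (31% against 15.9%), 0 at water (0% against 0.306%) and 1 for the interaction (3.45% against 5.85%). For DSS in WT, 1 gene of the set was called without WT DSS replicate 1 (Pgk1, 3.45%, against 4.61% of all genes) or without WT DSS replicate 3 (Pfkfb3, 3.45% against 2.88%). For the average 1 was called without WT DSS replicate 1 (Pgam1, 3.45% against 1.58%), and for TG against WT under DSS 1 was called without WT DSS replicate 3 (Pfkfb3, 3.45% against 0.823%).

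As a group the genes did not move one way under DSS. Their median DSS difference was -0.09 in TG, where 9 genes lay above 0 and 20 below, and -0.10 in WT, where 11 lay above and 18 below. The median over all genes was -0.01 in TG and -0.04 in WT. Of all 19935 genes, 10726 lay below 0 in TG and 11849 in WT. Without WT DSS replicate 2 the WT median was 0.04, with 16 genes above 0 and 13 below. Across both genotypes 13 genes were lower under DSS in each, 4 were higher in each, 7 were lower in TG and higher in WT, and 5 were higher in TG and lower in WT. The groups of arrays did not overlap for 6 genes for DSS in TG (20.7%, against 13.4% of all genes) and for 7 for DSS in WT (24.1%, against 16.1%). Those in TG were Hk2 and Car9, higher, and Slc2a1, Aldoa, Tpi1 and Pgam1, lower. Those in WT were Slc16a3, Epas1 and Adm, higher, and Hk1, Tpi1, Pgam1 and Pdk1, lower. For Hk1 the margin was very small, and its 2 probe sets disagreed in WT. Tpi1 and Pgam1, both lower, stood in both sets, 2 of 29 genes against 1.63% of all genes. Leaving out the following arrays raised the share over all genes too. The TG count was 13 without TG DSS replicate 1 (44.8%, against 21.9% of all genes) and 10 without TG water replicate 2 (34.5%, against 20.7%), and the WT count was 11 without WT DSS replicate 3 (37.9%, against 31.3%). Single genes also leaned on single arrays: among the named genes for which each array was left out in turn, the DSS difference moved by over 1.5 times, or changed sign, for 7 of 14 in TG and 14 of 16 in WT.

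**Figure D1:**
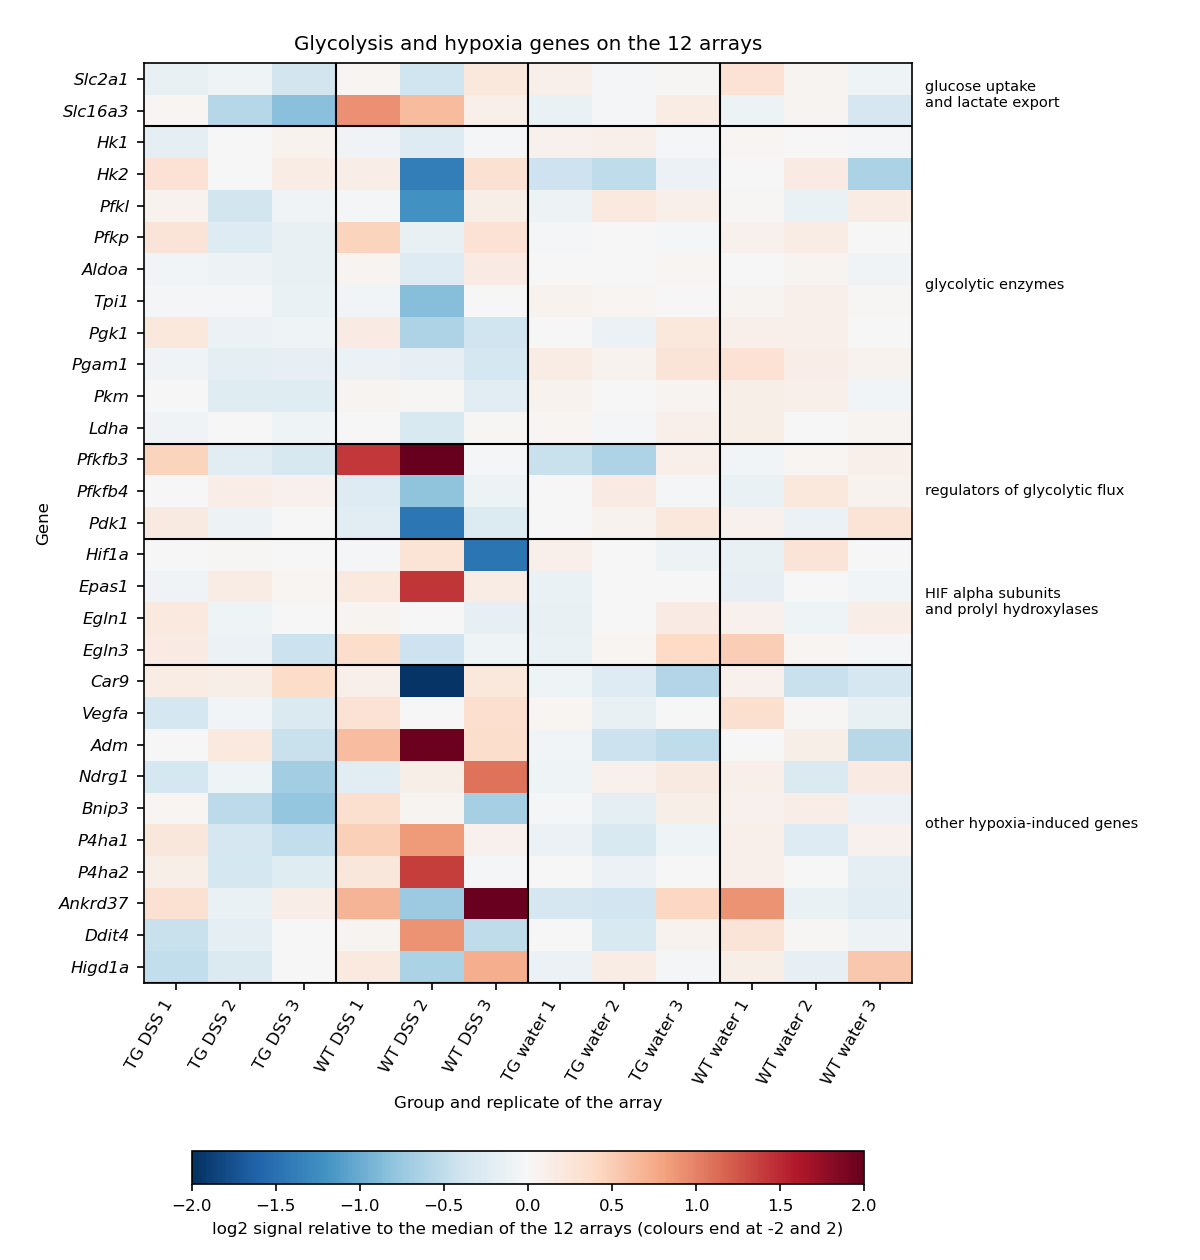
Heat map of the 29 measured genes (rows, grouped by role) on the 12 arrays (columns, from TG DSS to WT water). Colour is the centred log2 signal, with colours ending at -2 and 2. Most cells are pale, and WT DSS replicate 2 holds 16 genes beyond 0.5 in either direction (55.2%, against 30.7% of all genes).

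The spread of the set lay in the WT DSS arrays. The median SD of the 29 genes was 0.15 in TG DSS, 0.48 in WT DSS, 0.12 in TG water and 0.17 in WT water. Over all genes it was 0.11, 0.19, 0.13 and 0.13 in the same order, so it was also highest in WT DSS. An SD above 0.5 was found for 0 genes in TG DSS, 14 in WT DSS, 0 in TG water and 1 in WT water. More than 0.5 log2 units from the median lay 0, 2 and 3 genes in TG DSS replicates 1, 2 and 3, and 4, 16 and 6 genes in WT DSS replicates 1, 2 and 3. In TG DSS these were 0%, 6.9% and 10.3% of the set, against 5.6%, 1.22% and 2.14% of all genes. In WT DSS they were 13.8%, 55.2% and 20.7% of the set, against 8.22%, 30.7% and 11% of all genes. No gene was above 0.5 in all 3 WT DSS arrays, and 19 of 29 were beyond 0.5 in at least 1 of them. For these counts and for the SD above 0.5, the share over all genes was not counted. The genes beyond 0.5 differed between these arrays. WT DSS replicate 1 held Pfkfb3, Slc16a3, Ankrd37 and Adm, all above. WT DSS replicate 2 held 7 above (Pfkfb3, Adm, Epas1, P4ha2, Ddit4, P4ha1 and Slc16a3) and 9 below (Car9, Pdk1, Hk2, Pfkl, Tpi1, Pfkfb4, Ankrd37, Higd1a and Pgk1). WT DSS replicate 3 held Ankrd37, Ndrg1 and Higd1a above and Hif1a, Bnip3 and Ddit4 below. Ankrd37, Ddit4 and Higd1a were thus above in 1 WT DSS array and below in another.

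**Figure D2:**
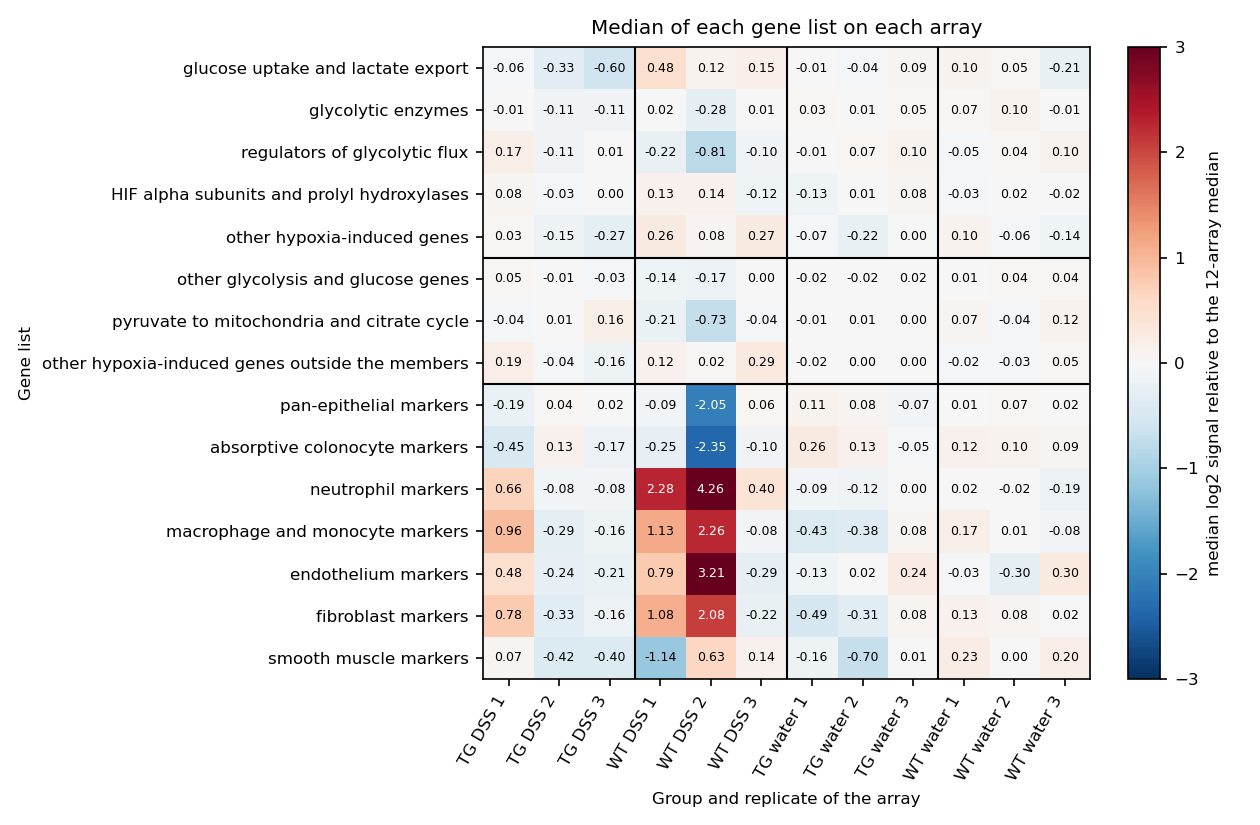
Median log2 signal of each gene list (rows) on each array (columns, from TG DSS to WT water), relative to the 12-array median, with the value printed in each cell and colours ending at -3 and 3. The 5 role lists of the glycolysis and hypoxia genes are mostly pale, with the flux regulators at -0.81 in WT DSS replicate 2. In that array the pan-epithelial marker list is at -2.05 and the neutrophil marker list at 4.26. A list median can hide opposite changes: in that array 7 genes of the set lay above 0.5 and 9 below -0.5.

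Neither transporter was called. Slc2a1, which encodes the widespread glucose transporter GLUT1, read -0.16, -0.09 and -0.37 in the TG DSS arrays, 0.03, -0.40 and 0.21 in the WT DSS arrays, 0.10, -0.03 and 0.03 in the TG water arrays and 0.29, 0.05 and -0.09 in the WT water arrays. The TG DSS arrays were all below the TG water arrays, and the WT groups overlapped. The DSS difference was -0.24 ± 0.16 in TG (limma adjusted p = 1) and -0.14 ± 0.16 in WT (adjusted p = 0.734), and without WT DSS replicate 2 the WT difference was 0.04. Slc16a3, which encodes the lactate exporter MCT4, read 0.04, -0.58 and -0.84 in the TG DSS arrays, 0.92, 0.63 and 0.10 in the WT DSS arrays, -0.13, -0.04 and 0.15 in the TG water arrays and -0.10, 0.06 and -0.33 in the WT water arrays. It stood on opposite sides of water in the 2 genotypes: 2 of 3 TG DSS arrays were below all TG water arrays, and all 3 WT DSS arrays were above all WT water arrays. The DSS difference was -0.45 ± 0.25 in TG (adjusted p = 1) and 0.68 ± 0.25 in WT (1.60-fold, adjusted p = 0.248). In TG it was -0.70 without TG DSS replicate 1 and -0.26 without TG DSS replicate 3.

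Among the glycolytic enzymes, Pgam1 had the smallest p-value of the whole set for DSS. Pgam1 encodes phosphoglycerate mutase, which moves the phosphate of phosphoglycerate before the enolase step, and it read -0.06, -0.20 and -0.16 in the TG DSS arrays, -0.11, -0.17 and -0.35 in the WT DSS arrays, 0.15, 0.07 and 0.25 in the TG water arrays and 0.29, 0.14 and 0.06 in the WT water arrays. All 6 DSS arrays lay below all 6 water arrays. The DSS difference was -0.30 ± 0.09 in TG (adjusted p = 1), -0.37 ± 0.09 in WT (1.30-fold lower, adjusted p = 0.124) and -0.34 ± 0.07 averaged over genotypes (adjusted p = 0.13, rank 76 of 19935 by p). Leaving out 1 array at a time moved the average only between -0.36 and -0.30, and without WT DSS replicate 1 it was called (adjusted p = 0.0410). With a weight per array it was called for WT (difference -0.43, adjusted p = 0.0316), where 3.78% of all genes were called. It was also called for the average (-0.34, adjusted p = 0.0131), where 4.74% were. Of its 3 probe sets 2 gave nearly identical values and count as 1 measurement, and the other gave a DSS difference of -0.35 in TG and -0.40 in WT. The array may read near-identical copies of the gene.

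The other enzymes of the pathway had larger p-values. Hk1 and Hk2 encode hexokinases, which trap glucose in the cell by phosphorylating it. Hk1 read -0.19, 0.01 and 0.07 in the TG DSS arrays, -0.08, -0.26 and -0.0384 in the WT DSS arrays, 0.08, 0.11 and -0.02 in the TG water arrays and 0.04, 0.01 and -0.037 in the WT water arrays. The WT DSS arrays lay below the WT water arrays, by a very small margin at the closest arrays. The difference was -0.09 ± 0.09 in TG and -0.13 ± 0.09 in WT (adjusted p = 1 and 0.537), and its 2 probe sets disagreed in WT, at -0.40 and 0.14. Hk2 read 0.30, -0.0039 and 0.15 in the TG DSS arrays, 0.13, -1.38 and 0.30 in the WT DSS arrays, -0.41, -0.52 and -0.11 in the TG water arrays and 0.0039, 0.16 and -0.64 in the WT water arrays. All TG DSS arrays lay above the TG water arrays, with a difference of 0.50 ± 0.39 (adjusted p = 1), whereas in WT DSS replicate 2 lay below the water range and replicate 3 above it, and the difference was -0.16 ± 0.39 (adjusted p = 0.89).

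Aldoa encodes aldolase, which cuts the phosphorylated sugar into triose phosphates, and read -0.05, -0.10 and -0.15 in the TG DSS arrays, 0.05, -0.26 and 0.17 in the WT DSS arrays, -0.01, 0.01 and 0.04 in the TG water arrays and 0.01, 0.05 and -0.07 in the WT water arrays. DSS minus water gave -0.11 ± 0.10 in TG and -0.01 ± 0.10 in WT (adjusted p = 1 and 0.975), and the TG groups did not overlap. Tpi1, the triose phosphate isomerase, read -0.03, -0.04 and -0.13 in the TG DSS arrays, -0.06, -0.85 and -0.0003 in the WT DSS arrays, 0.07, 0.04 and 0.0003 in the TG water arrays and 0.05, 0.10 and 0.02 in the WT water arrays. In both genotypes the DSS arrays lay below the water arrays, by a small margin at the closest arrays, and the difference was -0.10 ± 0.18 in TG and -0.36 ± 0.18 in WT (adjusted p = 1 and 0.387). The WT difference of Tpi1 was -0.08 without WT DSS replicate 2. Pgk1, which makes the first ATP of the pathway, read 0.22, -0.11 and -0.08 in the TG DSS arrays, 0.16, -0.61 and -0.41 in the WT DSS arrays, 0.01, -0.11 and 0.21 in the TG water arrays and 0.10, 0.09 and -0.01 in the WT water arrays. WT DSS replicates 2 and 3 were below every other array and replicate 1 was not, and the difference was -0.03 ± 0.18 in TG and -0.35 ± 0.18 in WT (adjusted p = 1 and 0.393). Without WT DSS replicate 1 the WT difference was -0.57 and was called (adjusted p = 0.0457), and without replicate 2 it was -0.18. The 3 Pgk1 probe sets also agreed almost exactly and count as 1 measurement.

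Pkm encodes the pyruvate kinase of most tissues, and read 0.001, -0.24 and -0.24 in the TG DSS arrays, 0.06, 0.03 and -0.23 in the WT DSS arrays, 0.08, -0.01 and 0.06 in the TG water arrays and 0.12, 0.10 and -0.06 in the WT water arrays. TG DSS replicates 2 and 3 and WT DSS replicate 3 were the lowest 3 arrays. For DSS it differed by -0.20 ± 0.10 in TG, -0.10 ± 0.10 in WT and -0.15 ± 0.07 on average (adjusted p = 1, 0.693 and 0.49). Ldha encodes the lactate dehydrogenase subunit that favours lactate, and read -0.07, 0.01 and -0.09 in the TG DSS arrays, -0.01, -0.30 and 0.02 in the WT DSS arrays, 0.04, -0.02 and 0.10 in the TG water arrays and 0.11, -0.01 and 0.05 in the WT water arrays. Only WT DSS replicate 2 stood apart, and the difference was -0.09 ± 0.09 in TG and -0.15 ± 0.09 in WT (adjusted p = 1 and 0.49), with -0.04 in WT without that array. For Ldha, whose promoter window holds 3 motif sites, the 95% confidence interval of the DSS difference ran from -0.30 to 0.12 in TG and from -0.35 to 0.06 in WT. Pfkl and Pfkp, the phosphofructokinase subunits, had DSS differences of -0.19 and -0.03 in TG and of -0.39 and 0.12 in WT. In all, 9 of the 10 measured enzymes had a DSS difference below 0 in TG and 9 of 10 in WT, with medians of -0.10 and -0.15 beside -0.01 and -0.04 for all genes. The WT lean rested largely on 1 array. By array, the enzymes' median was 0.02, -0.28 and 0.01 in WT DSS replicates 1, 2 and 3. It was thus lowest in the array where pan-epithelial markers were lowest, and the part of those markers was not tested. None was called.

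Regulators of the flux did not go one way in WT. Pfkfb3 makes the sugar bisphosphate that activates phosphofructokinase, and it read 0.45, -0.20 and -0.33 in the TG DSS arrays, 1.42, 2.53 and -0.04 in the WT DSS arrays, -0.45, -0.62 and 0.10 in the TG water arrays and -0.05, 0.04 and 0.10 in the WT water arrays. WT DSS replicates 1 and 2 were the highest arrays by far and replicate 3 lay within the water range. The DSS difference was 0.29 ± 0.51 in TG (adjusted p = 1) and 1.27 ± 0.51 in WT (2.42-fold, adjusted p = 0.284). Without WT DSS replicate 3 the WT difference was 1.94 and was called (adjusted p = 0.0267), and without replicate 2 it was 0.66. WT DSS replicates 1 and 2, where Pfkfb3 was high, were also the 2 WT DSS arrays with all neutrophil and all macrophage markers above 0.5.

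Pfkfb4, a relative of Pfkfb3 with the same pair of opposing activities, read -0.01, 0.13 and 0.08 in the TG DSS arrays, -0.26, -0.81 and -0.10 in the WT DSS arrays, 0.01, 0.16 and -0.02 in the TG water arrays and -0.13, 0.21 and 0.08 in the WT water arrays. It was lowest in WT DSS replicate 2, and the difference was 0.01 ± 0.17 in TG and -0.44 ± 0.17 in WT (adjusted p = 1 and 0.257), with -0.23 in WT without that array. Pdk1, the kinase that shuts pyruvate dehydrogenase and so keeps pyruvate out of the mitochondria, read 0.17, -0.11 and 0.01 in the TG DSS arrays, -0.22, -1.44 and -0.28 in the WT DSS arrays, -0.01, 0.07 and 0.22 in the TG water arrays and 0.09, -0.12 and 0.27 in the WT water arrays. All 3 WT DSS arrays were below all WT water arrays, and the TG groups overlapped. The difference was -0.07 ± 0.27 in TG and -0.73 ± 0.27 in WT (adjusted p = 1 and 0.261), and without WT DSS replicate 2 the WT difference was -0.33. Pdk1 is a known HIF target, and the part of HIF in these values was not tested.

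**Figure D3:**
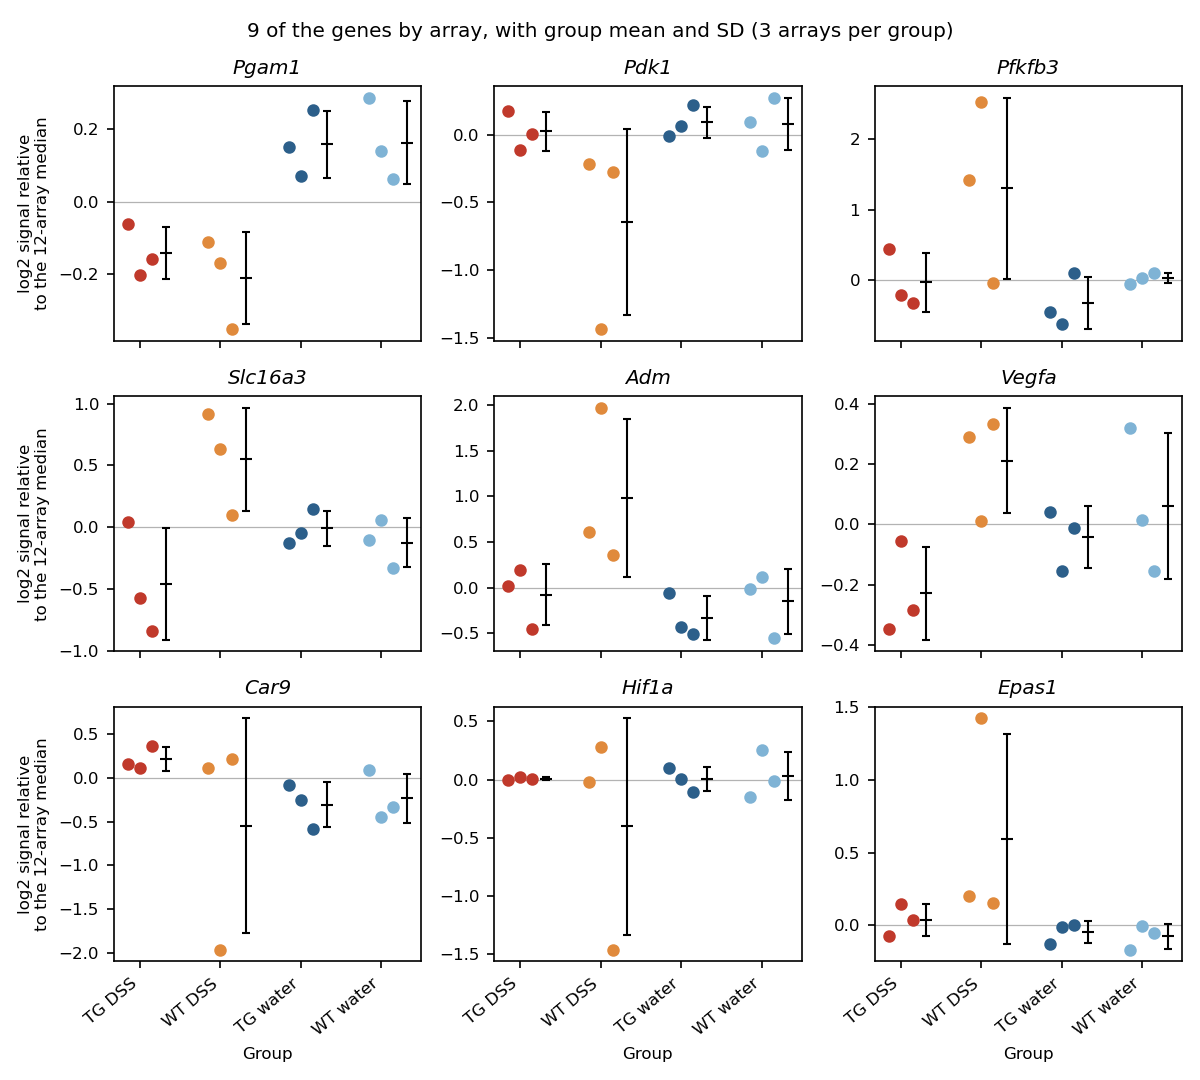
Values of 9 genes on every array (coloured points, 3 arrays per group, groups from TG DSS to WT water), with the group mean and SD in black. The vertical axis is log2 signal relative to the 12-array median and differs between panels. Pgam1 shows all 6 DSS arrays below all 6 water arrays, while Pfkfb3, Adm, Car9 and Hif1a have 1 or 2 WT DSS arrays far from the rest.

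The oxygen-sensing genes themselves showed no called change. Hif1a encodes the broadly expressed HIF alpha subunit and read -0.0048, 0.03 and 0.0048 in the TG DSS arrays, -0.02, 0.28 and -1.47 in the WT DSS arrays, 0.10, 0.01 and -0.11 in the TG water arrays and -0.15, 0.25 and -0.01 in the WT water arrays. A single array, WT DSS replicate 3, stood far below the others. DSS minus water was 0.01 ± 0.35 in TG and -0.44 ± 0.35 in WT (adjusted p = 1 and 0.602), and without that array the WT difference was 0.10. Epas1 encodes the HIF alpha subunit that is abundant in endothelium and also works in gut epithelium, where it serves iron uptake. It read -0.07, 0.15 and 0.04 in the TG DSS arrays, 0.20, 1.42 and 0.16 in the WT DSS arrays, -0.13, -0.01 and 0.003 in the TG water arrays and -0.17, -0.003 and -0.05 in the WT water arrays. All WT DSS arrays were above the WT water arrays, with replicate 2 by far the highest, and the difference was 0.08 ± 0.27 in TG and 0.67 ± 0.27 in WT (adjusted p = 1 and 0.287). Without WT DSS replicate 2, the array with 10 of 10 endothelial markers above 0.5, the WT difference was 0.25.

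Egln1, the main prolyl hydroxylase that marks HIF alpha, read 0.19, -0.09 and -0.01 in the TG DSS arrays, 0.05, -0.0034 and -0.16 in the WT DSS arrays, -0.15, 0.0034 and 0.17 in the TG water arrays and 0.08, -0.09 and 0.14 in the WT water arrays. The groups overlapped throughout, with differences of 0.02 ± 0.11 in TG and -0.08 ± 0.11 in WT (adjusted p = 1 and 0.791). The 95% confidence interval ran from -0.23 to 0.28 in TG and from -0.33 to 0.17 in WT. Egln3, the hydroxylase most strongly induced by HIF, had differences of -0.23 ± 0.24 in TG and -0.22 ± 0.24 in WT (adjusted p = 1 and 0.714).

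The remaining 10 genes are known mainly as hypoxia targets. In TG, 3 of them had a DSS difference above 0 and in WT 7 did, with medians of -0.13 in TG and 0.24 in WT, and none was called. Car9, a membrane carbonic anhydrase that handles the acid of glycolysis and is among the most HIF-dependent genes, read 0.15, 0.11 and 0.36 in the TG DSS arrays, 0.11, -1.97 and 0.21 in the WT DSS arrays, -0.08, -0.26 and -0.59 in the TG water arrays and 0.08, -0.45 and -0.33 in the WT water arrays. The TG DSS arrays were all above the TG water arrays, and WT DSS replicates 1 and 3 were near the TG DSS level while replicate 2 was the lowest of all 12. The difference was 0.52 ± 0.47 in TG and -0.32 ± 0.47 in WT (adjusted p = 1 and 0.807), and without WT DSS replicate 2, in which 14 of 14 pan-epithelial markers lay below -0.5, the WT difference was 0.39. Vegfa, the growth factor of vessels, read -0.35, -0.06 and -0.28 in the TG DSS arrays, 0.29, 0.01 and 0.34 in the WT DSS arrays, 0.04, -0.15 and -0.01 in the TG water arrays and 0.32, 0.02 and -0.15 in the WT water arrays. The TG DSS arrays were lower than the WT DSS arrays without overlap, but each overlapped its own water group, with differences of -0.19 ± 0.14 in TG and 0.15 ± 0.14 in WT (adjusted p = 1 and 0.658).

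Adm encodes adrenomedullin, a vasodilator peptide, and read 0.01, 0.20 and -0.45 in the TG DSS arrays, 0.61, 1.97 and 0.36 in the WT DSS arrays, -0.06, -0.43 and -0.50 in the TG water arrays and -0.01, 0.12 and -0.55 in the WT water arrays. All 3 WT DSS arrays lay above all WT water arrays, and the TG groups overlapped. The difference was 0.25 ± 0.38 in TG (adjusted p = 1), 1.13 ± 0.38 in WT (2.19-fold, adjusted p = 0.206) and 0.69 ± 0.27 on average (adjusted p = 0.396). Without WT DSS replicate 2 the WT difference was 0.63. P4ha1, a collagen prolyl hydroxylase subunit, read 0.23, -0.34 and -0.50 in the TG DSS arrays, 0.47, 0.86 and 0.08 in the WT DSS arrays, -0.12, -0.31 and -0.08 in the TG water arrays and 0.11, -0.25 and 0.09 in the WT water arrays. WT DSS replicates 1 and 2 were the highest of its arrays, and the difference was -0.03 ± 0.22 in TG and 0.49 ± 0.22 in WT (adjusted p = 1 and 0.335), with 0.30 in WT without replicate 2. In WT DSS replicate 2, 9 of 10 fibroblast markers also lay above 0.5.

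Ndrg1, a stress-induced gene of differentiated epithelium, read -0.35, -0.09 and -0.69 in the TG DSS arrays, -0.20, 0.11 and 1.09 in the WT DSS arrays, -0.09, 0.09 and 0.19 in the TG water arrays and 0.09, -0.28 and 0.17 in the WT water arrays. WT DSS replicate 3 was the highest array and TG DSS replicate 3 the lowest, with differences of -0.44 ± 0.29 in TG and 0.34 ± 0.29 in WT (adjusted p = 1 and 0.629). Bnip3, a mitochondrial protein that starts the removal of mitochondria, read 0.04, -0.52 and -0.78 in the TG DSS arrays, 0.33, 0.05 and -0.67 in the WT DSS arrays, -0.02, -0.19 and 0.12 in the TG water arrays and 0.08, 0.13 and -0.12 in the WT water arrays. It was lowest in TG DSS replicates 2 and 3 and WT DSS replicate 3, and the difference was -0.39 ± 0.26 in TG and -0.13 ± 0.26 in WT (adjusted p = 1 and 0.865). P4ha2, Ankrd37, Ddit4 and Higd1a had DSS differences between -0.25 and 0.20 in TG and between -0.07 and 0.55 in WT. Ankrd37 had the largest SD of the set, 1.35 among the WT DSS arrays, where it read 0.68, -0.73 and 1.97.

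**Figure D4:**
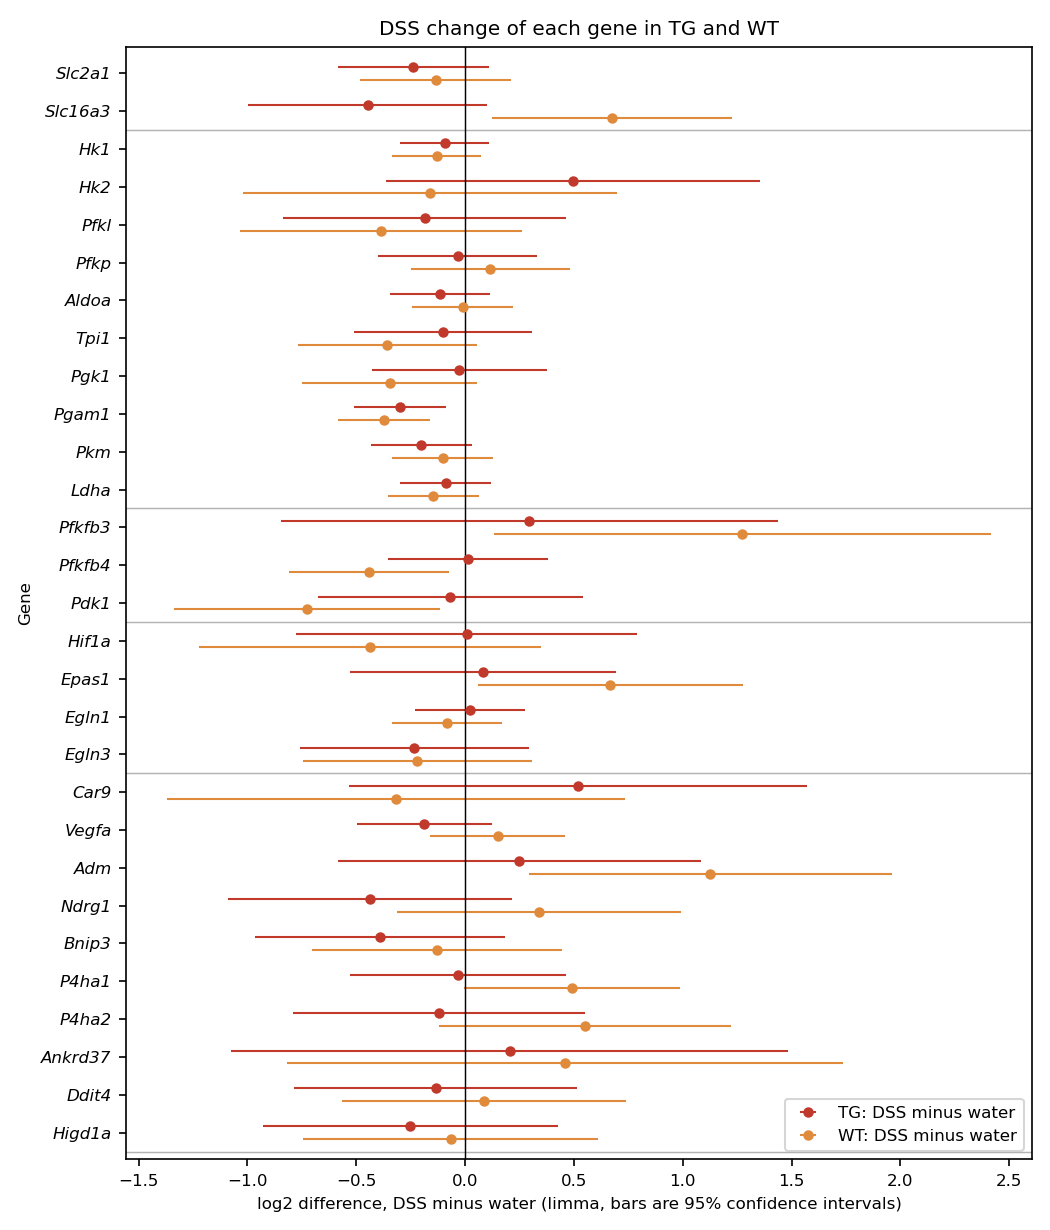
DSS minus water difference of each of the 29 genes (log2, horizontal axis) in TG and in WT, with 95% confidence intervals from limma as bars. In TG 1 interval excludes 0 (Pgam1), and in WT 7 do, before any adjustment for the number of genes.

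The precision of the DSS differences varied by gene. The 95% confidence interval of the DSS difference within a genotype reached from 0.20 log2 units on either side for Hk1 to 1.28 for Ankrd37, with a median of 0.55. These widths were the same in TG and WT, because the fit took 1 spread per gene over all 4 groups. They are not a separate precision for each genotype: the median SD of the set was 0.48 in WT DSS and 0.15 in TG DSS. For 23 of 29 genes in TG and 18 of 29 in WT the whole interval lay within 1 log2 unit, a 2-fold change, of 0. These intervals are not adjusted for the number of genes, so a half-width is not the smallest change that could have been called. Pgam1 in WT, with an interval from -0.58 to -0.16, was not called. The narrow interval of Hk1 belongs to the average of 2 probe sets that disagreed in WT. A p-value that missed the threshold does not show that a gene was unaltered.

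The comparison of genotypes asked whether the claudin-2 transgene went with a difference in these genes. Under DSS, TG arrays differed from WT arrays at an unadjusted p under 0.05 for 9 genes. Of these, 7 were lower in TG (24.1%, against 5.63% of all genes). The other 2 were higher in TG (2 of 29, against 2055 of 19935 among all genes). The median TG minus WT difference was -0.11, beside 0.04 over all genes. Slc16a3 differed most by p: 0.04, -0.58 and -0.84 in the TG DSS arrays against 0.92, 0.63 and 0.10 in the WT DSS arrays. The ranges did not overlap, although by a small margin, and the difference was -1.01 ± 0.25 (2.01-fold lower in TG, adjusted p = 0.132). With a weight per array it was -1.32 and was called (adjusted p = 0.0349), where 1.37% of all genes were called. Vegfa differed by -0.44 ± 0.14 (adjusted p = 0.188) and P4ha1 by -0.67 ± 0.22 (adjusted p = 0.201), also lower in TG.

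Among the other genes of the 9, Adm (-1.06 ± 0.38), Pfkfb3 (-1.33 ± 0.51), Ndrg1 (-0.71 ± 0.29) and P4ha2 (-0.68 ± 0.30) were lower in TG, and Pfkfb4 (0.46 ± 0.17) and Pdk1 (0.67 ± 0.27) were higher. Their adjusted p-values lay between 0.225 and 0.307. The TG DSS and WT DSS arrays did not overlap for 6 genes (20.7%, against 19% of all genes). These were Pfkfb4 and Pdk1, higher in TG, and Slc16a3, Epas1, Vegfa and Adm, lower. The count was 11 without TG DSS replicate 1 (37.9%, against 33.3% of all genes), 12 without WT DSS replicate 2 (41.4%, against 28.8%) and 13 without WT DSS replicate 3 (44.8%, against 34.9%). Markers moved between the same arrays: over the 12 neutrophil markers the median TG minus WT difference was -2.08, over 13 macrophage markers -1.04, over 10 endothelial markers -1.22, over 10 fibroblast markers -0.81 and over 14 pan-epithelial markers 0.61. Their part in the differences of the glycolysis and hypoxia genes was not tested.

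At water the genotypes were close. None of the 29 genes had an unadjusted p under 0.05 and no gene had arrays without overlap (0%, against 4.98% of all genes). Differences ran from -0.35 for Pfkfb3 to 0.12 for Slc16a3, with a median of -0.03 beside 0.01 for all genes. The genes with the smallest p were Vegfa (-0.10 ± 0.14), Pfkfb3 (-0.35 ± 0.51) and P4ha1 (-0.15 ± 0.22), all with an adjusted p of 1. Without 1 array the number of non-overlapping genes reached 5, without WT water replicate 3 (17.2%, against 13.6% of all genes). With a weight per array 4 of 29 genes were called lower in TG (13.8%), in a fit that called 1971 of all genes (9.89%). These were Hk2, Vegfa, Ankrd37 and Ddit4. That fit leaned on 1 array per water group, with weights of 7.15 for WT replicate 1 and 6.57 for TG replicate 2. Smooth muscle markers also differed at water, with 5 of 8 lower in TG without overlap (62.5%). Their part was not tested.

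The difference between the 2 DSS responses was tested as an interaction. Slc16a3 had the smallest p, with an interaction of -1.12 ± 0.35, its DSS difference being more negative in TG than in WT (unadjusted p = 0.00922, adjusted p = 0.797). Pfkfb4 differed by 0.46 ± 0.23 and Ndrg1 by -0.78 ± 0.41 (adjusted p = 0.852 for both). The Pfkfb4 interaction was 0.25 without WT DSS replicate 2, and that of Ndrg1 was -0.40 without WT DSS replicate 3. The median interaction over the 29 genes was -0.10, beside 0.01 for all genes, and without WT DSS replicate 3 it was -0.01. No interaction was called, so a gene that stood out in WT and not in TG is not shown to respond differently in the 2 genotypes.

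Other genes of the same pathways were read from lists that hold no gene of the set. None of their genes was called in any comparison. Counts below 0 in these lists stand beside a lean over all genes. Of all 19935 genes, 10726 lay below 0 under DSS in TG and 11849 in WT. In the list of pyruvate entry and the citrate cycle, 7 of 23 measured genes were below 0 under DSS in TG and 20 of 23 in WT, with medians of 0.07 in TG and -0.40 in WT. At an unadjusted p under 0.05, 1 of the 23 was lower in TG (4.35%, against 1.17% of all genes) and 12 were lower in WT (52.2%, against 9.55%). The WT arrays did not overlap for 10 of 23 (43.5%, against 16.1% of all genes). By array, the list's median was -0.21, -0.73 and -0.04 in WT DSS replicates 1, 2 and 3, so it was lowest in the array where pan-epithelial markers were lowest, and the part of those markers was not tested. Idh3a, a subunit of the isocitrate dehydrogenase of the cycle, read -0.18, -0.01 and 0.07 in the TG DSS arrays and -0.53, -1.35 and -0.87 in the WT DSS arrays, against 0.11, 0.08 and 0.01 in TG water and 0.09, -0.04 and 0.04 in WT water. All 3 WT DSS arrays were low, and the WT difference was -0.95 ± 0.17 (adjusted p = 0.0618). Pdp2, the phosphatase that reactivates pyruvate dehydrogenase, differed by -1.42 ± 0.29 in WT (adjusted p = 0.0766). Pcx, the carboxylase that refills the cycle from pyruvate, differed by -1.51 ± 0.39 (adjusted p = 0.127). It read -0.31, -2.28 and -1.86 in the WT DSS arrays. Pdk2, a kinase of pyruvate dehydrogenase like Pdk1, differed by -0.49 ± 0.19 in TG (adjusted p = 1) and -0.73 ± 0.19 in WT (adjusted p = 0.134).

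In the list of other glycolysis and glucose genes, 16 of 27 were below 0 under DSS in TG (10726 of 19935 among all genes). In WT 19 of 27 were (11849 of 19935). Eno3, an enolase best known from muscle, read -0.37, -0.04 and 0.12 in the TG DSS arrays and -0.93, -2.98 and -3.25 in the WT DSS arrays, and between -0.0034 and 0.20 in the 6 water arrays. Every WT DSS array was below every water array, by a difference of -2.49 ± 0.48 (5.60-fold lower, adjusted p = 0.0677). Slc2a5, the fructose transporter, differed by -1.22 ± 0.33 in WT and Pgm2, a phosphoglucomutase, by -0.53 ± 0.17 (adjusted p = 0.141 and 0.183). Pgm2 read -0.28, -0.88 and -0.26 in the WT DSS arrays, lowest in replicate 2. Slc2a3, the glucose transporter GLUT3 of neurons and leukocytes, was higher by 0.85 ± 0.27 in WT (adjusted p = 0.194). It read 0.58, 1.60 and 0.43 in the WT DSS arrays, highest in replicate 2. The list of other hypoxia-induced genes had medians of -0.0018 in TG and 0.14 in WT over 25 genes. Hilpda, a lipid droplet protein, read 0.35, -0.0028 and 0.0028 in TG DSS and 1.20, 0.72 and 0.59 in WT DSS, against -0.02, -0.07 and -0.03 in TG water and -0.10, -0.05 and 0.03 in WT water. It was higher in every WT DSS array than in any water array, by 0.87 ± 0.15 (adjusted p = 0.0618).

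Hmox1, the haem-degrading enzyme that macrophages also make, differed by 2.14 ± 0.44 in WT (adjusted p = 0.0766), and Angptl4, a lipase inhibitor, by 1.43 ± 0.44 (adjusted p = 0.178). In WT DSS replicates 1, 2 and 3 Hmox1 read 1.66, 3.30 and 1.11, and Angptl4 read 0.81, 2.55 and 0.41. Both were highest in replicate 2, where neutrophil and macrophage markers were highest, and the part of those markers was not tested. In the pentose phosphate list, 0 of 6 genes were below 0 under DSS in TG and 4 of 6 in WT, with Rpia, a pentose isomerase, at -0.46 ± 0.19 in WT (adjusted p = 0.303). Rpia read -0.11, -0.93 and -0.34 in the WT DSS arrays. In the list of other HIF pathway regulators, 8 of 11 were below 0 in TG and 6 of 11 in WT. Vhl, which carries hydroxylated HIF alpha to destruction, had the smallest p at -0.31 ± 0.09 in WT (adjusted p = 0.175).

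**Figure D5:**
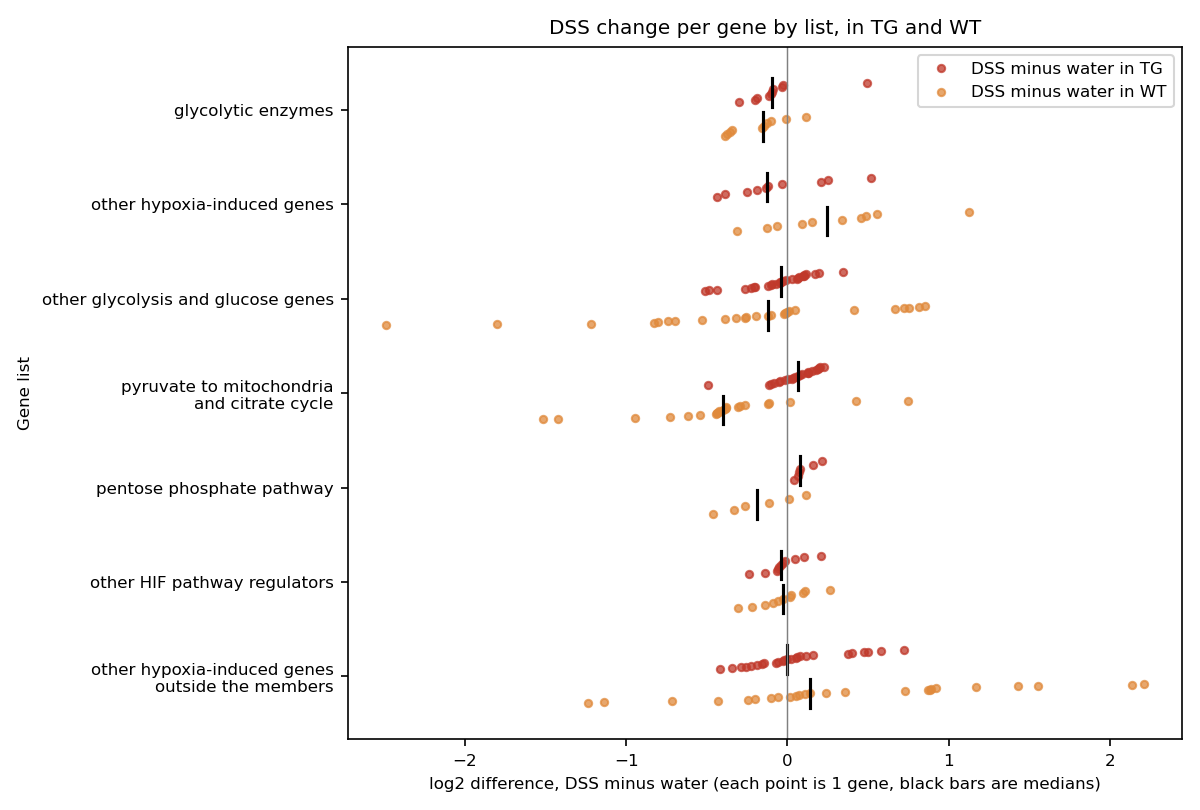
DSS minus water difference (log2, horizontal axis) of each gene in 7 lists (rows), in TG (red, upper) and WT (orange, lower), with list medians as black bars. In the citrate cycle list the median is 0.07 in TG and -0.40 in WT, whereas for the glycolytic enzymes it is -0.10 in TG and -0.15 in WT.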

How the data were processed

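The authors' deposited values are log2 signals of 28815 probe sets on 12 arrays, summarised with RMA in Affymetrix Expression Console per the submitters' processing notes. Their versions and the genome build are not given in the sources used for this work. The log base was taken as that of RMA. The 12 values of each probe set had a median of 0 (tolerance 5e-07), so the deposited table holds no absolute level and no filter on dim probe sets was possible. Of the probe sets, 21780 had 1 symbol, 1605 several and 5430 none, and the first gave 19935 genes, with probe sets averaged. The limma package (3.58.1, under R 4.3.3) fitted a mean per group by lmFit and eBayes, leaving 8 residual degrees of freedom, with two-sided p-values adjusted by Benjamini-Hochberg over all genes. An exact permutation test of 3 against 3 arrays cannot go below 0.1. The scripts were tested on simulated data. Python 3.11.15, pandas 2.3.3 and matplotlib 3.10.9 made the tables and figures.

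Every array is given for the 10 genes with the smallest p in each DSS comparison, the 3 smallest in each other comparison, and Hif1a, Epas1, Egln1, Slc2a1, Ldha, Car9 and Vegfa. Other genes of the set named with values were chosen after their values were seen. Up to 4 genes of each other list with the smallest p were named. The genes of the set and all lists were chosen with earlier results of these data known. Same-numbered arrays of different groups deviated together in 1 of 18 pairs (r over 0.1; range -0.48 to 0.38), so the numbers were not taken to pair the arrays. No pair of arrays was identical. Promoter windows and names came from RefSeq (GRCm38.p6). Precision is limited by having 3 arrays per group.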

Additional observations from a re-analysis of the deposited data

How the results depend on the processing

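Alternatives were a fit on the arrays compared, a replicate block, each array centred on its median, genes with a single probe set, eBayes with trend and robust, weights per group or per array, an adjusted p under 0.1, a 1.5-fold threshold and leaving out 1 array at a time. With the replicate block, although the numbers do not pair the arrays, 0 genes of the set were called in every comparison, as without it. Weights per array changed counts of calls: to 2 for DSS in WT (Pgam1 and Pfkfb3), 2 for DSS averaged over genotypes (the same 2), 1 for TG against WT under DSS (Slc16a3) and 4 for TG against WT at water. Over all genes these fits called 754, 944, 273 and 1971, against 34, 1, 8 and 0 without weights. With weights per array the calls were 6.9%, 6.9%, 3.45% and 13.8% of the set, against 3.78%, 4.74%, 1.37% and 9.89% of all genes. The weights were uneven, from 0.10 for WT DSS replicate 2 to 7.15 for WT water replicate 1. In each water group 1 array carried most of the weight (7.15 for WT replicate 1, 6.57 for TG replicate 2). With genes of a single probe set the median DSS difference in WT was -0.0113, and the genes lower without overlap in both genotypes numbered 1, as they did with each array centred on its median. The DSS difference of Hif1a in TG changed sign with weights per array (-0.0119), and that of Vegfa averaged over genotypes with centred arrays (0.0054).

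Without 1 array there were 0 to 1 called genes for DSS in WT, for the average and for the genotypes under DSS, and 0 for the other comparisons. The median difference ran from -0.154 to 0.0373 for DSS in WT and from -0.188 to -0.0128 for the interaction. Non-overlapping genes numbered 6 to 13 for DSS in TG, 7 to 11 for DSS in WT, 6 to 13 for TG against WT under DSS and 0 to 5 for TG against WT at water. At the highest counts the share over all genes was 21.9%, 31.3%, 34.9% and 13.6%. Signs changed for single genes. In WT under DSS, Hif1a ran from -0.78 to 0.10, Slc2a1 from -0.265 to 0.0373 and Car9 from -0.70 to 0.39. In TG, Hif1a ran from -0.0469 to 0.0568 and Egln1 from -0.0551 to 0.104. Averaged over genotypes, Hif1a ran from -0.384 to 0.0513, Egln1 from -0.0683 to 0.0112, Car9 from -0.0884 to 0.456 and Vegfa from -0.0722 to 0.0467. For TG against WT at water Vegfa ran from -0.211 to 0.0272. The cause of these changes was not tested.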
